A study of Homo sapiens with 197 samples.

Results

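The panel of tissue-restricted transcripts counted in kinase-expressing IMR90 fibroblasts held probes for 5 enzyme genes with a testis-restricted pattern, TKTL1, TKTL2, TPTE, ADCY10 and DPEP3, which were taken by name from the 42 tissue-restricted probes of a set of 75. They were followed in 196 lanes, which are all lanes but that of HK1, left out because it held 92 counts over all endogenous probes. IMR90 are diploid human lung fibroblasts from fetal tissue. They had received a retrovirus with a kinase made active by a myristoylation and FLAG tag, 1 kinase per well, and RNA was taken on day 4 after infection. Each of these wells had 1 lane, except for PIK3CG and PTK2 with 2. The IMR90 controls comprised 2 wells labelled as empty vector, in 3 lanes. SW39, a line derived from IMR90 by transformation with a viral oncogene, had 2 wells, and a commercial mix of RNA from human cancer lines, one of them a testicular embryonal carcinoma, was counted in 6 lanes that are repeats of the same RNA. A kinase was measured in 1 culture, so a single well has no replicate. For control 2, PIK3CG and PTK2 the second lane bears the number of another well (1, 3 and 4). Estimates of the 5 genes against the controls are given with and without these lanes.

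The gene products act in different pathways. TKTL1 and TKTL2 are relatives of transketolase, the enzyme that exchanges carbon units between sugar phosphates in the non-oxidative arm of the pentose phosphate pathway. TPTE is a membrane protein of the phosphatase family. ADCY10 is the soluble adenylyl cyclase, which is activated by bicarbonate and makes the cyclic AMP needed for sperm motility. DPEP3 is a membrane-bound dipeptidase of male germ cells. Transcripts of this kind are silent in most somatic tissues, some of them through DNA methylation of the promoter, and can reappear in tumours.

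The promoters of these genes differ in how many CG pairs, the sites of DNA methylation, they hold. TPTE and DPEP3 had been entered in the panel by the study as genes linked to methylation, ADCY10 as one not linked to it, and TKTL1 as a gene induced by a demethylating drug, so 3 promoters are shown here, with every CG in capitals. Each is 300 bases long, from 250 bases before the start of the gene to 50 after it, in RefSeq's GRCh38.p14. The TPTE promoter lies on the plus strand of chr21:10521333-10521632, DPEP3 on the minus strand of chr16:67980450-67980749 and ADCY10 on the minus strand of chr1:167914085-167914384.
TPTE: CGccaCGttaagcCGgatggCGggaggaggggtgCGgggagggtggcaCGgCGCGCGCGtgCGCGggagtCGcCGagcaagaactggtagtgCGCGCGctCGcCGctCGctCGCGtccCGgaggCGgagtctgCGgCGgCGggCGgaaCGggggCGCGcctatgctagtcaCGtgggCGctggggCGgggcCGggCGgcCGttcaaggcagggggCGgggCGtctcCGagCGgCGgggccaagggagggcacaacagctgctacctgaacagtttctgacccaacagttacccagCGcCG
DPEP3: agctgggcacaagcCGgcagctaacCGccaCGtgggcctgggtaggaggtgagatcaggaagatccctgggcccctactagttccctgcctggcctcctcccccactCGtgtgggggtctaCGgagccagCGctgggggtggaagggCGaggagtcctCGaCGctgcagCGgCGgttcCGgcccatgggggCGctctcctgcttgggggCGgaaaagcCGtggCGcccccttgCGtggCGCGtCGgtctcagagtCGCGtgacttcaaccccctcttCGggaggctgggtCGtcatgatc
ADCY10: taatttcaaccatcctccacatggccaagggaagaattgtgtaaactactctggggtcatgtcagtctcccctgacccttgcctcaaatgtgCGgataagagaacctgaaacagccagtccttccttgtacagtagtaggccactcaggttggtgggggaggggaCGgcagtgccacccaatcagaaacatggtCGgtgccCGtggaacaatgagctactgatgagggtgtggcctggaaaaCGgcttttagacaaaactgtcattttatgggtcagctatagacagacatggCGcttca
The TPTE promoter held 44 CG pairs, a number reached by 4.19% of 35116 promoters of this length, whose median was 14. DPEP3 held 24, which 33.9% reached, and ADCY10 held 6, which 66.3% reached. TKTL2 held 24, and the 2 entries of TKTL1 held 18 and 8. CG counts of a reference sequence say nothing of the methylation in these cells, which was not measured here. The genes lie on chromosome X (TKTL1, 154295795 to 154330350), 4 (TKTL2, 163471095 to 163473754), 21 (TPTE, 10521583 to 10605716), 1 (ADCY10, 167809386 to 167914134) and 16 (DPEP3, 67975663 to 67980499). The part of the transcript that each probe reads was not given in the sources used here.

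None of the 5 transcripts was detected in IMR90 controls. A probe was called detected when its raw count lay more than 2 SD over the average of the 8 negative controls counted in that lane, a level of 22.7, 25.9 and 17.1 counts in the first lane of control 2, the lane of control 1 and the second lane of control 2. In this order, TKTL1 had 7, 10 and 12 counts. TKTL2 had 5, 3 and 1. TPTE had 9, 5 and 5. All lay below the level of their lane, as did ADCY10 with 9, 5 and 1 counts and DPEP3 with 2, 4 and 4. In RNA from bulk cultures, few cells with a transcript and little of it per cell cannot be told apart. Total counts ranged from 132257 to 152599 in control lanes, from 123789 to 142790 in SW39, from 29629 to 340763 in kinase lanes and from 108768 to 233536 in the mixed RNA. The row named ZBTB33 was above the level in every kinase lane, in 0 of 3 control lanes and in 1 of 6 lanes of the mixed RNA. Kinase and control lanes thus differed in a row that is not the one named for the tag. That row, MyrFlag, had a log2 fold change against the controls (edgeR) of -0.06 in kinase wells and 2.01 in SW39. The paper, in contrast, reports the tag for all kinases and no expression of it in SW39. Whether further rows are misnamed, those of the 5 genes among them, was not tested.

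In SW39, transformation was not accompanied by detection of any of the 5. With levels of 17.7 and 22.3 counts in wells 1 and 2, TKTL1 had 10 and 9 counts, TKTL2 had 3 and 7, TPTE had 7 and 9, ADCY10 had 10 and 12, and DPEP3 had 8 and 5. Normalized counts were obtained by scaling each lane first to its positive controls and next to PGK1, TBP and TUBB2A, housekeeping genes of glycolysis, transcription and the cytoskeleton. In edgeR's quasi-likelihood test with Benjamini-Hochberg adjustment over 57 endogenous probes, 13 probes (22.8%) differed between SW39 and the IMR90 controls, 2 wells against 2, and 0 of the 5 were among them. Without the second lane of control 2 the test called 7 probes, and with a well left out 2 to 6, again none of the 5. At an unadjusted p under 0.05 edgeR also gave 0 of the 5, whereas 1, ADCY10, passed in limma (p = 0.0148, adjusted p = 0.0767) and in edgeR with 4 housekeeping genes (p = 0.0333, adjusted p = 0.127). The largest estimate was that of ADCY10, with a log2 fold change of 0.83 (SE 0.41, adjusted p = 0.284), and 0.36 without the second lane. DPEP3 stood at 0.65 (SE 0.49, adjusted p = 0.509), at 0.81 without the second lane, at 0.21 without SW39 well 1 and at 1.01 without SW39 well 2. TKTL2 stood at 0.43 (SE 0.52, adjusted p = 0.704) and TKTL1 at -0.32 (SE 0.37, adjusted p = 0.668), and without the second lane they stood at 0.036 and -0.12. The estimate for TPTE was 0.04 (SE 0.42, adjusted p = 0.965), and its sign turned to -0.23 with TMM factors and to -0.04 with DESeq2's own size factors, and was -0.09 without the second lane. DESeq2 called 0 of the 5 as well. With a filter that required 20 counts in 2 wells, 16 probes were left and none of the 5 was among them.

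TPTE was the one transcript of the 5 that was plainly present in the mixed RNA of cancer lines. Its raw counts ranged from 225 to 704, with a median of 400.5, and stood above the level in 6 of 6 lanes. Of the 42 tissue-restricted probes, 13 (31%) did so. Its normalized count was 235 ± 34.3 (SD, n = 6 lanes), which measures the spread of repeated lanes of the same RNA. As a ratio of geometric means (normalized count + 1), TPTE stood 33.8-fold over the 2 IMR90 controls, the 4th highest of the 42. Since TPTE was below the level in every control lane, the ratio with such counts raised to the level is a lower bound, and by it TPTE was at least 9.75-fold higher. The lowest lane of the mixed RNA, at 205 normalized counts, exceeded the highest kinase lane by 7.17-fold.

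The other 4 were near background in the mixed RNA. ADCY10 ranged from 24 to 64 counts, above the level in 2 of 6 lanes, with a normalized count of 21.02 ± 4.53 (SD, n = 6 lanes). Its ratio to the controls was 4.13, 2.75 without the second lane of control 2, and 1.05 with counts below the level raised to it. TKTL1 had 14 to 44 counts, TKTL2 had 3 to 25 and DPEP3 had 9 to 37, all below the level in 6 of 6 lanes. Their ratios were 1.29, 2.21 and 2.23, and 1.46, 1.67 and 2.54 without the second lane. TPTE was at 29.8 without it. Ratios of 2 or more were reached by 33 of the 42 probes (78.6%) and by 4 of the 5, and the 8 negative-control probes, treated alike, had ratios between 0.51 and 2.02 with a median of 1.08, 1 of them at 2 or more. The ratios of TKTL2 and DPEP3 lay above all 8, but with counts below the level on both sides they are no measure of a fold. With scaling to the positive controls alone or in the deposited table TKTL1 was also above 2, at 2.55 and 2.15. The ratios of all 5 genes rose in these settings, that of TPTE to 68.3 and 58.2. The ratios of the negative-control probes given here are those of the main scaling, so 2 is not the same mark in these settings.

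The mixed RNA also served to look at germ cell markers. DDX4 and BRDT were above the level in 0 of 6 lanes, RNF17 and ASZ1 in 1 and DAZL in 2. DAZL, an RNA-binding protein of germ cells, had from 10.4 to 40.5 normalized counts. These 5 markers were thus at or near the level in the RNA in which TPTE was strong, while other germline genes of the panel, named after their values were seen, were above it in 6 of 6 lanes, such as CTCFL at a ratio of 20.7 and HORMAD1 at 4.05. Among the 10 genes entered as linked to methylation, TPTE had the highest ratio and was the one probe above the level in all 6 lanes, and the median ratio was 2.38. The 10 genes entered as not linked, ADCY10 among them, had a median of 3.05, with 4 above the level in all lanes. The 5 drug-inducible genes had a median of 4.71, with TKTL1 the lowest at 1.29. These lists were chosen in the study for other reasons and were not tested here.

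**Figure D1:**
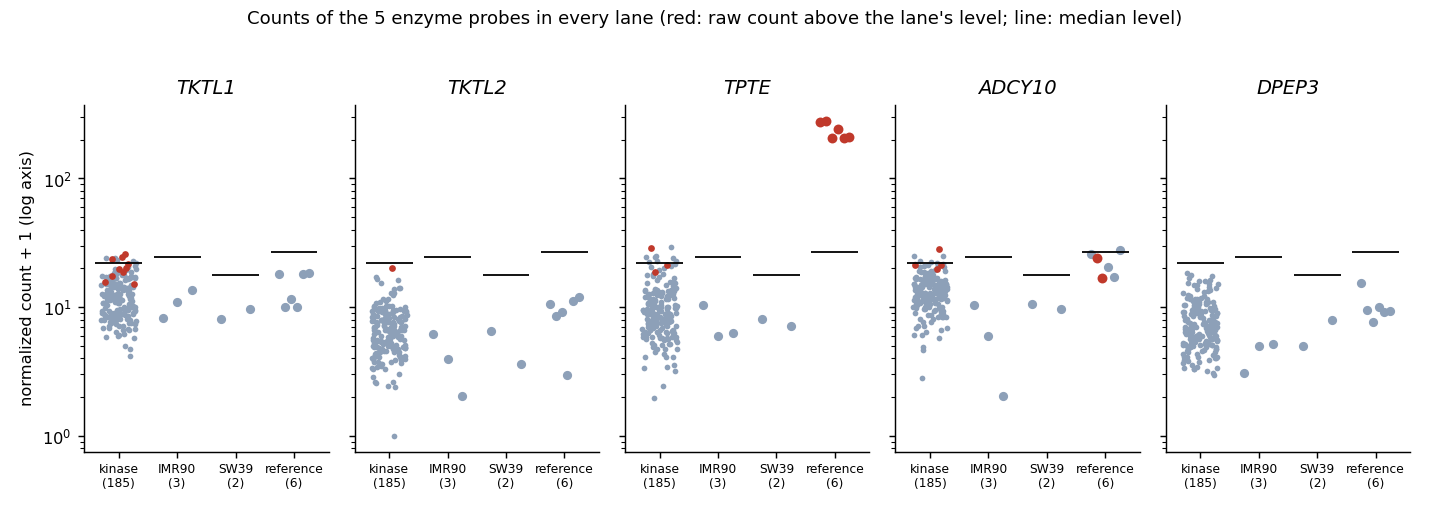
Normalized count + 1 (log axis) of the 5 probes in the kinase, 3 IMR90 control, 2 SW39 and 6 reference lanes, each point being a lane, red where the raw count exceeded the lane's negative-control level, and each black line the group's median level in normalized counts + 1. Only TPTE in the reference RNA, between 205 and 279 normalized counts, stands away from the line.

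In kinase wells the 5 transcripts were detected in few lanes, and never by a wide margin. TKTL1 had a median of 11 counts (lowest 1, highest 24) and was above the level in 10 lanes (5.41%). ADCY10 had a median of 12 (1 to 28) and was above it in 4 lanes. TPTE had a median of 8 (1 to 31) and was above it in 3. TKTL2, with a median of 5 (0 to 17), was above it in 1 lane, and DPEP3, with a median of 6 (1 to 18), in 0. The median level was 20.6 counts. In all, 18 of 925 pairs of gene and lane (1.95%) were above the level. The share was 16.3% (1269 of 7770) for the whole panel and 18.3% for the other 37 probes. These pooled shares include abundant probes such as ALAS1 and ATAD2, which were above the level in 100% of kinase lanes. By probe, the median was 3 lanes for the 5 genes and 12 lanes for the other 37. Each negative-control probe, set against the other 7, was above its level in 8.65% of pairs, from 0 lanes for 3 probes to 53 and 56 lanes for a pair of them, whose median counts of 16 and 17 exceeded those of all 5 genes. Expression of the 5 genes under this level would not be seen.

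The lanes above the level exceeded it by a median of 1.44 counts and by at most 5.78. The TKTL1 lanes were those of CDK4, ADRBK1, PRKCI, HIPK1, CKB, NUAK2, HK3, SRPK2, PRKAR2A and TNK2. ADCY10 was above it in PDXK (26 counts, level 21.9), PRKCI (18, level 12.2), CSNK1E (19, level 16.4) and CAMK2D (18, level 17.9). TPTE was above it in HK2 (23 counts, level 18.8), NUAK2 (19, level 15.9) and PIK4CA (16, level 15.5). TKTL2 was above it in PIK4CA (17 counts, level 15.5). In 3 lanes, PRKCI, NUAK2 and PIK4CA, 2 of the genes were above it. These lanes were named after their values were seen. All lanes above the level for any of the 5 genes, except that of CDK4, bear sample numbers from 97 on. Against the kinase lanes numbered up to 96, those from 97 on had lower negative controls, with a ratio of medians of 0.86 for their mean. The panel's median ratio was 1.43. The parts of kinase and sample number in these detections were not tested. With a stricter level of the mean + 3 SD, 2 pairs were left.

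**Figure D2:**
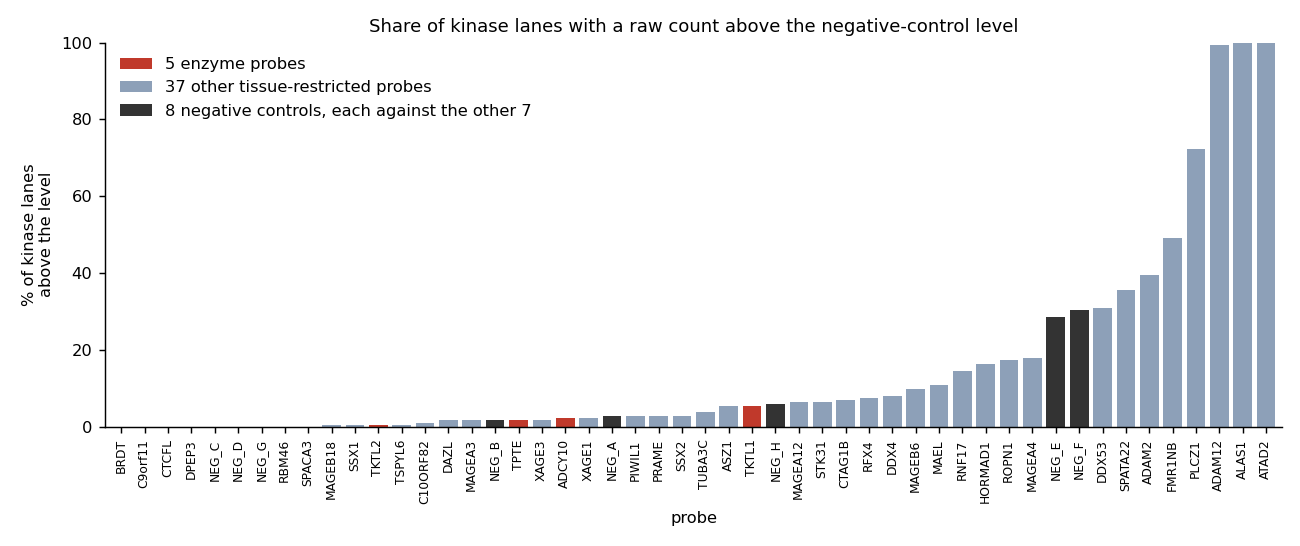
Share of kinase lanes (%) in which each probe had a raw count above the negative-control level, for the 5 enzyme probes (red), the 37 other tissue-restricted probes (grey-blue) and the 8 negative controls, each set against the other 7 (black). The 5 probes lie between 0% and 5.41%, as do many of the 37 other probes.

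Compared as a set with the IMR90 controls, kinase wells had more ADCY10 counts, although the transcript was below the level in all control lanes and in all kinase lanes but 4. edgeR's quasi-likelihood test called 2 of 57 probes (3.51%), the row ZBTB33 and ADCY10, whose log2 fold change was 1.27 (SE 0.37, adjusted p = 0.0215). Most of the panel stood higher in kinase wells, with 40 of 42 log2 fold changes above 0 and a median of 0.58, and the estimates of 5 probes that were not called exceeded that of ADCY10, up to 1.95. In normalized counts, the control lanes had 9.35, 4.97 and 1.05, and the kinase lanes had a median of 12.2 (1.81 to 27.3). The groups overlapped, with 41 kinase lanes below the highest control lane, 4 below the next and 0 below the second lane of control 2. The 21 kinase lanes with sample numbers up to 24, among which the controls lie, ranged from 6.65 to 19.7. Their medians were 8.40 in numbers 1 to 12, the lowest of the 17 blocks of 12 numbers, and 13.3 in numbers 13 to 24. Control 1 and the second lane of control 2 bear the number 1, and the first lane of control 2 the number 13. Within the numbers up to 24, with their block of 12 as a covariate, the estimate was 1.26 and the call was kept. In this fit the lanes of a well were summed and placed by the number of the first. The block of the second lanes was thus not adjusted for. An exact two-sided permutation test was run over 17020 choices of 2 control wells, with the second lanes included. It gave a mean log2 difference of 1.29 and an adjusted p of 0.0435 over the 57 probes. The choices were drawn from wells of all sample numbers, whereas both controls lie in numbers up to 24. The test thus cannot tell kinase from sample number, and it was not run without the second lanes.

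The call of ADCY10 rested on few counts. Without the second lanes, of which the control one held 1 count, the log2 fold change was 0.81 (SE 0.38, adjusted p = 0.321 in edgeR). Without control 1 it was 1.24 (edgeR, adjusted p = 0.329), without control 2 it was 1.31 (edgeR, adjusted p = 0.447), and with DESeq2's own size factors it was 1.00 (adjusted p = 0.130). In both kinases with a second lane that lane was low as well, with 20 and 8 counts of ADCY10 in the first and second lane of PIK3CG and 17 and 8 in those of PTK2. The 8 negative-control probes differed between kinase and control wells by log2 differences from -0.26 to 0.70. The other 4 genes did not pass the test. DPEP3 stood at 0.92 (SE 0.51, adjusted p = 0.260), TKTL2 at 0.89 (SE 0.50, adjusted p = 0.260) and TPTE at 0.53 (SE 0.52, adjusted p = 0.539) in the same edgeR fit, and at 1.10, 0.50 and 0.37 without the second lanes. Without control 2, TPTE stood at 0.87, and without control 1 at 0.33. TKTL1 stood at 0.19 (SE 0.37, adjusted p = 0.774), at 0.39 without the second lanes, and turned to -0.01 with TMM factors, to -0.12 with DESeq2's own size factors and to -0.18 within the numbers up to 24.

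**Figure D3:**
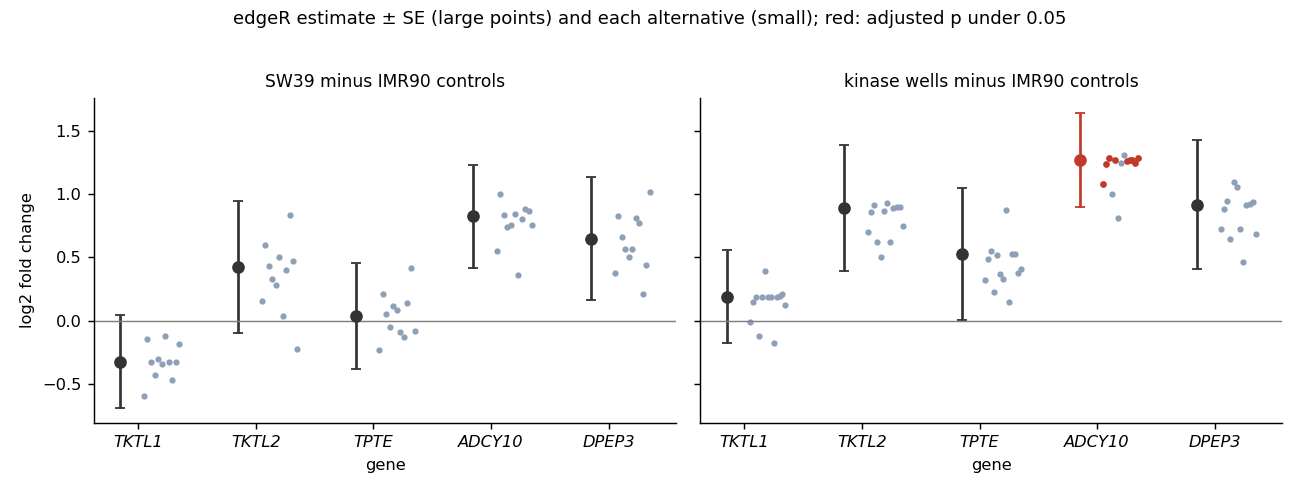
log2 fold change of the 5 genes in SW39 (left) and in kinase wells (right) against the IMR90 controls, with the edgeR estimate ± SE as a large point and each alternative as a small one, red where the adjusted p was under 0.05. ADCY10 in kinase wells, at 1.27, is the one red estimate, and 4 of its alternatives are not red.

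Few single kinase wells stood out for the 5 genes. For each gene, a Z-score was the distance of a well's log2(normalized count + 1) from the mean over all IMR90 wells, in units of the SD over these wells. Of 915 pairs of gene and kinase, 1 was above 2.5, against 30 of 7686 pairs of the whole panel (0.39%). It was TKTL2 in the well of PIK4CA, a phosphatidylinositol 4-kinase, with a Z-score of 2.68. This well held 17 counts of TKTL2 (95% exact Poisson interval 9.90 to 27.2, counting error only) at a level of 15.5. TKTL2 came next in NUAK2 (11 counts, Z-score 2.31) and RPS6KA6 (15 counts, Z-score 2.23), both below their level. Just under the threshold was TPTE in DYRK2, with a Z-score of 2.44 and 30 counts at a level of 54.6, followed by NUAK2 (2.38, 19 counts) and TK1 (2.11, 31 counts at a level of 65.8). DYRK2 and TK1 have the sample numbers 28 and 32, in a run of lanes with high negative controls that is described further on.

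TKTL1 was highest in HK3, a hexokinase, with 12 counts at a level of 11.98 and a Z-score of 2.15, then in NUAK2 (1.98) and MVK (1.97). ADCY10 was highest in CSNK1E, a casein kinase, with 19 counts and a Z-score of 2.33, then in PIP5K1B (1.96) and TIE1 (1.96). DPEP3 was highest in EPHA4, an ephrin receptor, with 17 counts at a level of 24.2 and a Z-score of 2.25, then in PIK4CA (2.16) and GK (2.11). NUAK2 thus stood among the highest 3 wells of 3 of the genes. In that well the other 37 tissue-restricted probes had a median Z-score of 1.37, so the well was high for the panel in general, and in PIK4CA the median was 0.84. No pair of the 5 genes was above 3.5.

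Low wells were more frequent than high ones, with 7 of 915 pairs below -2.5 against 57 of 7686 for the panel (0.742%). The lowest were ADCY10 in PIK3R5 (1 count, Z-score -4.37) and TKTL2 in MAPK14 (0 counts, Z-score -4.25). For TKTL2 in MAPK14 a count of 0 allows up to 3.69 counts at the 95% level, and the counts of this shallow lane were multiplied by 3.76. TPTE was lowest in TBK1 (1 count, Z-score -3.23) and TKTL1 in IKBKE (4 counts, Z-score -2.83). TBK1 and IKBKE are related kinases of innate immune signalling, and in their wells the other tissue-restricted probes had median Z-scores of -1.07 and -1.26, while their negative controls, at 8.80 and 9.03 normalized counts, were near the median of 9.29 of kinase lanes. DPEP3 was lowest in DGKG (2 counts, Z-score -2.06).

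Kinases listed for metabolites or messengers of the protein families of TPTE, TKTL1, TKTL2 and ADCY10 were set against the other kinase wells. No such list was made for DPEP3, and shared substrates were not tested. TPTE in 11 wells of phosphoinositide kinases and their subunits ranged from 4.58 normalized counts in PIK3R3 to 17.9 in PIK4CA, with a median of 7.95, against a median of 7.95 in the other kinase wells. TKTL1 in 7 wells of kinases of sugars and glycolysis ranged from 6.72 in ADPGK to 24.9 in HK3, with a median of 10.54 against 11.05. TKTL2 in the same wells ranged from 2.37 in PKM2 to 8.28 in HK3, with a median of 5.27 against 5.48. ADCY10 in 3 wells of subunits of the cyclic AMP-dependent kinase ranged from 10.99 in PRKACB to 14.2 in PRKACG, with a median of 11.95 against 12.29. The ranges lay within those of the other wells, except for the HK3 well, which holds the highest TKTL1 value.

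The edgeR test of these lists, adjusted over 57 probes and 4 lists together, called 0 of 228 (0%), with 11 at an unadjusted p under 0.05 and none of the 5 genes among these. DESeq2 with the same size factors called 0 as well. The log2 fold changes were -0.07 (SE 0.24) for TPTE in phosphoinositide kinases, 0.03 (SE 0.21) for TKTL1 and -0.25 (SE 0.27) for TKTL2 in sugar kinases and -0.03 (SE 0.28) for ADCY10 with cyclic AMP-dependent kinase. The signs for TPTE, TKTL1 and ADCY10 turned under other settings, all with estimates within 1 SE of 0. In 4 wells of kinases that are themselves enriched in testis (TSSK1B, TSSK6, GK2 and PRKACG), the largest estimate was that of TKTL2, at 0.57 (SE 0.33, adjusted p = 0.836 in edgeR), with normalized counts from 6.33 to 10.1. DPEP3 in these wells ranged from 2.30 in TSSK1B to 15.3 in TSSK6.

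Counts of the 5 genes moved with the sample number of the lane. In the 12 kinase lanes numbered 25 to 36, TPTE had a median of 21.2 normalized counts (8.92 to 28.5), against 7.80 (0.95 to 27.7) in the other kinase lanes, and 65 of those were above the lowest of the 12. The ratio of the medians, 2.71, was the 2nd highest of the 42 tissue-restricted probes, next to RBM46 (2.92), TSPYL6 (2.68) and DAZL (2.21). The mean of the negative controls in the same lanes had a median of 21.1 against 9.24, a ratio of 2.28, with NEG_G at 6.75 and NEG_H at 12.5, and the panel's median ratio was 1.01. The lane of MPP1, number 36, was the lowest of the 12 in TPTE, at 8.92, and in the negative controls, at 11. Outside this run the lane of NEK6, number 60, had the highest mean of the negative controls, at 23.8, with TPTE at 12.04. The part of the negative controls in the TPTE values was not tested. Of these 12 lanes, 0 had TPTE above the level. The other 4 genes did not follow, with ratios of 1.24 for ADCY10, 0.92 for TKTL2, 0.85 for DPEP3 and 0.75 for TKTL1.

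A different shift ran between the lanes numbered up to 96 and those from 97 on. The median of TKTL1 was 8.34 in the first 92 lanes and 13.8 in the later 93, that of DPEP3 was 4.84 and 7.95, and that of TKTL2 was 4.44 and 6.20. The ratios of 1.65, 1.64 and 1.40 compare with a panel median of 1.43, and 31 of the 42 probes had a ratio of 1.3 or more. For TPTE and ADCY10 the ratios were 1.15 and 1.07. The mean of the negative controls went the other way, with a ratio of 0.86. Most kinases have 1 lane, so kinase and number cannot be told apart for a single well. Both splits were made with the values in view and were not tested.

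**Figure D4:**
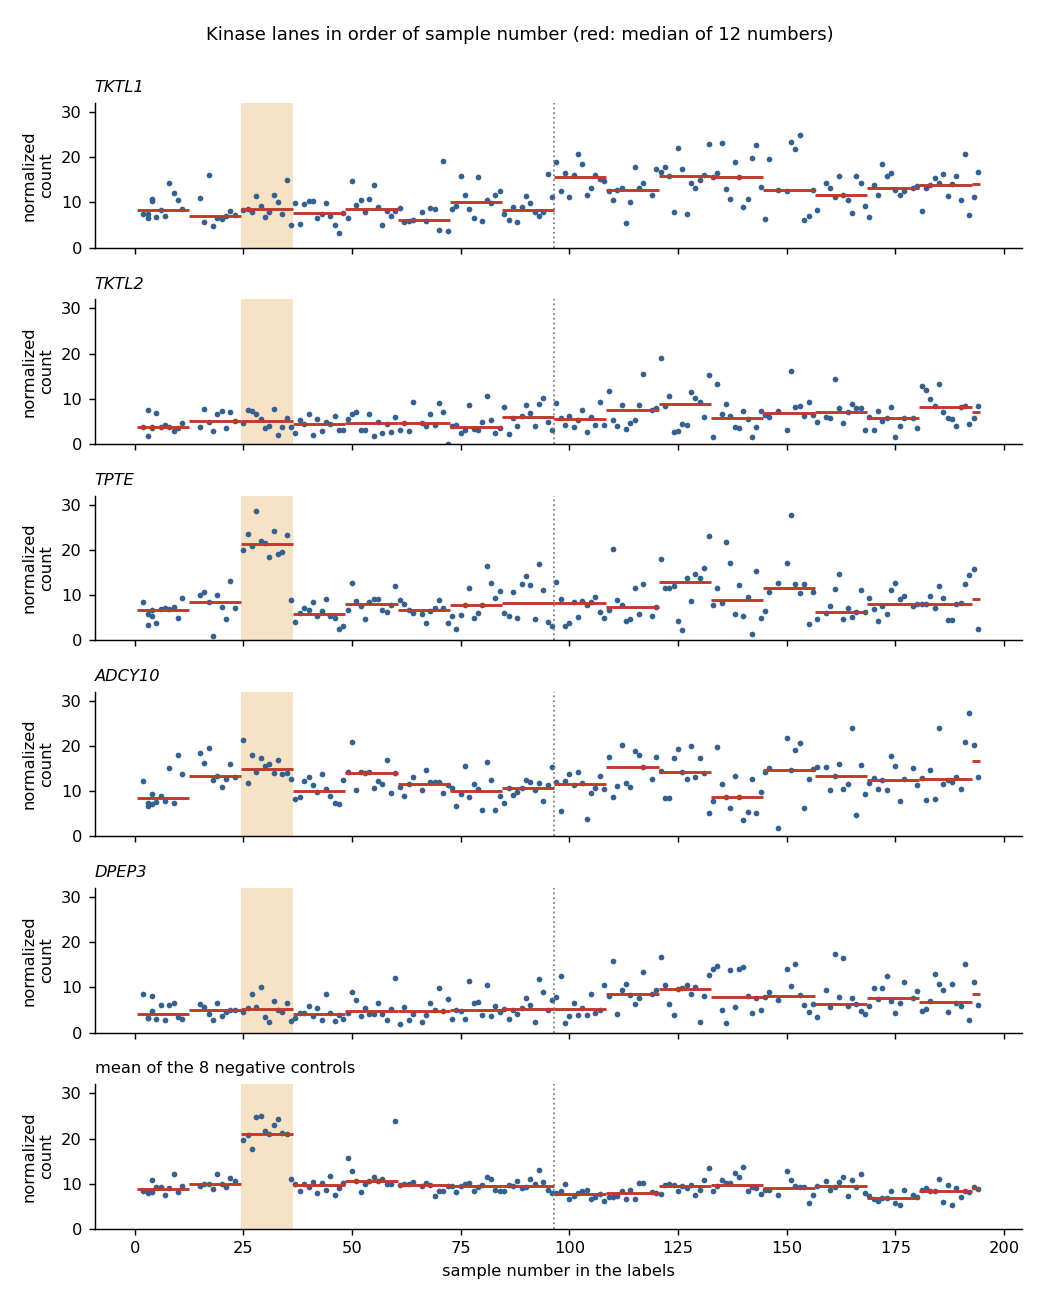
Normalized counts of the 5 genes and of the mean of the 8 negative controls in the kinase lanes against the sample number in the labels, each point being a lane and each red line the median of a block of 12 numbers, with numbers 25 to 36 shaded and a dotted line before number 97. TPTE and the negative controls are both high in the shaded block, at medians of 21.2 and 21.1, and TKTL1 is higher beyond the dotted line.

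Across the kinase wells, the 3 probes most like each gene were not among the 5. Points share the scaling and the shifts described above, and most counts are below the level, so the correlations of log2 values are descriptions only. TKTL1 was most like FMR1NB (Spearman's rho 0.64, Pearson's r 0.63), PLCZ1 (0.64 and 0.63) and MAGEB6 (0.61 and 0.60). TPTE was most like DAZL (0.62 and 0.62), TSPYL6 (0.56 and 0.57) and ROPN1 (0.56 and 0.58), of which DAZL and TSPYL6 were also high in lanes 25 to 36. DPEP3 was most like SSX1 (0.62 and 0.58), RFX4 (0.59 and 0.59) and MAGEA12 (0.58 and 0.57), and TKTL2 most like CTAG1B (0.52 and 0.52), ROPN1 (0.48 and 0.43) and PIWIL1 (0.45 and 0.44). ADCY10 had the weakest likeness, to MAGEB6 (0.34 and 0.30), XAGE1 (0.30 and 0.24) and MAGEA4 (0.30 and 0.26). Within blocks of 12 numbers, after centring on the block median, rho for the first of each was 0.37, 0.51, 0.47, 0.39 and 0.30 in this order of genes. Among the 3 named probes, the first then changed for TKTL1 (MAGEB6 and PLCZ1, both 0.45), TKTL2 (ROPN1, 0.41) and ADCY10 (MAGEA4, 0.36). For TPTE and DPEP3 it stayed the same.

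The nearest of the 5 ranked 7th of the other panel probes for TKTL2, 12th for TPTE, 14th for TKTL1 and 16th for ADCY10 and DPEP3. Between the 5 genes, rho ranged from 0.09 for ADCY10 with DPEP3 to 0.40 for TKTL2 with DPEP3. The relatives TKTL1 and TKTL2 had a rho of 0.26, which fell to 0.07 after centring the blocks. With the median of the other 37 tissue-restricted probes, rho was 0.63 for DPEP3, 0.56 for TKTL1, 0.50 for TPTE, 0.45 for TKTL2 and 0.30 for ADCY10, so a well's general position in the panel went with each gene. With the mean of the negative controls, rho was highest for TPTE, at 0.30.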

How the data were processed

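RNA was counted with Nanostring probes, and samples were grouped by their titles and labels. The authors deposited raw counts per probe and lane, without normalization, as well as a joint table of signal values. Set against the counts, these were the count times 1 factor per lane, or in 8 lanes the count itself. All its columns were assigned to a sample. Here, counts were scaled by the geometric mean of the 6 positive controls and then by that of PGK1, TBP and TUBB2A, in Python 3.11.15 with pandas 2.3.3 and scipy 1.17.1. A pseudocount of 1 preceded log2, and no background was subtracted. Low counts of all 5 genes make their normalized values sensitive to these steps, since total counts set the precision of weak probes. Intervals are exact Poisson at 95% and cover counting error only.

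Lanes of 1 name were summed for tests and averaged for Z-scores. Counts of 57 endogenous probes were tested in R 4.3.3 with edgeR 4.0.16 (quasi-likelihood, with the scaling as offset) and Benjamini-Hochberg adjustment, and alternatively with limma 3.58.1 and DESeq2 1.42.0. The SE was derived from the F statistic, and for weak probes it can be too small for the p-value beside it. For ADCY10 in SW39 it was 0.41, where DESeq2 with the same size factors gave 0.54. Nothing in the labels says that wells of a group came from separate cultures, so p-values measure only the spread between these samples. The scripts were tested on simulated data, which held no shifts with sample number and so do not show how the tests fare under them. Probes were matched to RefSeq genes of GRCh38.p14 by accession for 4 of the 5 and by symbol for DPEP3.

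The genes and lists were chosen with earlier results of these data known. Genes named were, by rule, the 5 genes, the 3 wells with the highest Z-score for each, every well above 2.5, the lowest well, the wells of 4 lists of kinases (phosphoinositide kinases, sugar kinases, subunits of the cyclic AMP-dependent kinase, testis-enriched kinases), the 3 most similar probes, the germ cell markers DDX4, DAZL, ASZ1, RNF17 and BRDT, and the scaling genes. Alternatives covered scaling, tool, filter, background, pseudocount, second lanes, blocks of 12 sample numbers, shallow lanes and each replicate left out, and leaving out numbers 25 to 36 was added after the data had been seen.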

Additional observations from a re-analysis of the deposited data

Results flagged for a closer look

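TKTL2 in lane 4 of the mixed RNA lay far below the other 5 lanes, with 3 counts and 1.95 normalized counts. Its gap to the next lane was 0.75 of the range of the 6 lanes on the log2 scale, over the 0.625 of Dixon's criterion, which chance passes in about 1 of 20 groups. All 6 lanes were below the negative-control level for TKTL2.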

How the results depend on the processing

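The number of the 5 genes called stayed at 0 in SW39 and in the kinase lists under all alternatives that tested them. Between kinase wells and controls it fell from 1 to 0 with DESeq2's own size factors and without the second lanes, and ranged from 0 to 0 when either control was left out, where the lone control is assumed to vary like the kinase wells. The replicate numbers of IMR90 and SW39 did not pair the wells (r = 0.05 between their differences), and the replicate block left 0 of the 5 genes called and 12 of 57 probes in place of 13. Signs turned for TPTE in SW39 (-0.23 with TMM factors, -0.045 with DESeq2's own size factors, -0.091 without second lanes), and leaving out 1 well gave values from -0.13 to 0.42 for TPTE and from -0.22 to 0.84 for TKTL2, and from 0.21 to 1.01 for DPEP3, which kept its sign. They turned for TKTL1 in kinase wells (-0.010 with TMM factors, -0.12 with DESeq2's own size factors, -0.18 in numbers 1 to 24), for TKTL1 in sugar kinases (-0.018 with 4 housekeeping genes, -0.019 with DESeq2's own size factors, -0.14 with blocks), for ADCY10 in subunits of the cyclic AMP-dependent kinase (0.042 with 4 housekeeping genes) and for TPTE in phosphoinositide kinases (0.024 with blocks, 0.085 without numbers 25 to 36). In all of these the cause was not tested.

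Of the 5 genes, 4 were 2-fold or more above the controls in the mixed RNA, 1 when counts below the level were raised to it, 2 with a pseudocount of 5, 3 without second lanes and with the negative-control mean subtracted, and 5 with positive controls only and in the deposited table. TPTE remained so under each alternative, from 9.75-fold to 225-fold, the highest value coming from subtracting the negative-control mean. Pairs above the level numbered 18, then 2 with the mean + 3 SD and 32 with the highest negative control. Pairs with a Z-score above 2.5 numbered 1, but 5 with HK1 included (all in the HK1 well), 2 with 4 housekeeping genes, 45 with counts below the level raised to it, where TKTL2 in PIK4CA turned to -0.57, 25 with the negative-control mean subtracted, 7 with a pseudocount of 5, 3 with the median and median absolute deviation, 3 with blocks centred and 2 without numbers 25 to 36. The pair of TKTL2 and PIK4CA fell to 1.97 with blocks centred. The filter on low counts left no value for the 5 genes in SW39. Except for TPTE in the mixed RNA, counts of these genes lay mostly below the negative-control level, so smaller amounts could not be told from background.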
